A study of Mus musculus with 50 samples.

Results

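The dystrophin glycoprotein complex was followed in the aging mouse gastrocnemius, the large calf muscle, through the mRNA of 9 of its genes: Dmd, Utrn, Dag1, Sgca, Sgcb, Sgcd, Sspn, Dtna and Sntb1. The genes were taken by symbol from the deposited gene tables, where all 9 were found among 23880 genes. All 9 also passed the filter on low counts, which left 12586 genes. The samples were 50 gastrocnemius muscles of male wild-type C57BL/6JRj mice, an inbred strain, with 1 mouse per library: 8 mice at each of 8, 18, 22 and 24 months and 9 mice at each of 26 and 28 months. All mice were caged singly and ate the purified AIN93M diet. The mice of 8 and 18 months were moved to that diet for a short period before dissection, whereas those of 22 to 28 months ate it from late adulthood on, so that diet history and age cannot be told apart in comparisons across the 2 regimens. Mice with signs of illness or tumors at dissection had been left out of the study. Total counts per library lay between 13607229 and 21267375.

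The complex joins the actin cytoskeleton of a muscle fibre to the laminin of the basement membrane around it. Dystrophin (Dmd) binds actin inside the fibre and the membrane protein dystroglycan (Dag1), whose outer chain carries the sugars that hold laminin. The sarcoglycans (Sgca, Sgcb, Sgcd) and sarcospan (Sspn) form a side complex in the membrane, and dystrobrevin (Dtna) and the syntrophins (Sntb1) bind dystrophin from the cytoplasm. Utrophin (Utrn), a relative of dystrophin, is concentrated at the neuromuscular junction of adult muscle and is also made in blood vessels. Loss of dystrophin or of a sarcoglycan leaves the fibre membrane fragile and causes muscular dystrophy.

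RefSeq promoter windows ran from 250 bases before to 50 bases after a transcription start on GRCm38.p6. Of these, 10 windows were read, for 7 of the 9 genes, and none was read for Dtna or Sntb1. For Dmd, Utrn and Sspn, 1 window each is printed here, the most upstream one, because these genes gave the largest rise, no call and the only fall between 8 and 28 months. The Dmd window is chrX:82948620-82948919 on the plus strand and covers the first base of the gene. The Utrn window is chr10:12861686-12861985 on the minus strand, inside the annotated gene. The Sspn window is chr6:145931623-145931922 on the plus strand, across the annotated start of the gene. Capitals mark the E-box letters CANNTG, the general form bound by myogenic factors of the MyoD family.
Dmd: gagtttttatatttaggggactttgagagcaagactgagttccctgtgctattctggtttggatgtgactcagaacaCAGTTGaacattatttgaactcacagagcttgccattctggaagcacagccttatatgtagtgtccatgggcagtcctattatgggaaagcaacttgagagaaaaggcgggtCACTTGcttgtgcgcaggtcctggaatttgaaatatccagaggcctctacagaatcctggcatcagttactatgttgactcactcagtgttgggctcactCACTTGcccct
Utrn: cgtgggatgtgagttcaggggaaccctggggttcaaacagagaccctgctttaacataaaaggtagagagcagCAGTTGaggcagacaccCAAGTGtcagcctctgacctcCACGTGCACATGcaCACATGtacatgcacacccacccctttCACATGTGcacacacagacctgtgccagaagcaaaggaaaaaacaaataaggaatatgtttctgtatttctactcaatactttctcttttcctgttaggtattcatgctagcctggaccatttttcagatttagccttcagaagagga
Sspn: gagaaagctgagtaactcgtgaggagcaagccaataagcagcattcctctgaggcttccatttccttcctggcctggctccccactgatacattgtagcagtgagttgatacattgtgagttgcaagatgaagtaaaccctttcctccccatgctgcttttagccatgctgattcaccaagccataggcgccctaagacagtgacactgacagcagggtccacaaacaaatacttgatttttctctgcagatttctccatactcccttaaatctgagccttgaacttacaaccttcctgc
On both strands, the Dmd window held 3 E-box matches, the Utrn window 7, some of which overlap, and the Sspn window 0. These counts depend on the start chosen, since a second window of Dmd, inside the gene, held 0 E-box and 3 GC box matches and a second window of Sspn held 1 E-box match. E-box letters occurred in 72.3% of 32851 mouse promoter windows of the same length. Neither CTANNNNTAG, the core form of a MEF2 site (3.69% of all windows), nor the Ets-like letters TTCCGG (14.9%) were found in any of the 10 windows. GGGCGG, the GC box (35.7% of all windows), was in none of the 3 printed windows. These matches describe letters only.

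Levels of different genes were compared in TPM, which is scaled by transcript length. At 8 months, Sgca (α-sarcoglycan) had the highest level with 236.5 ± 12.71 TPM (mean ± SD, n = 8), followed by Dag1 with 99.76 ± 21.39 TPM. Dtna (60.72 ± 7.499 TPM), Sgcb (56.01 ± 4.029 TPM) and Dmd (54.32 ± 22.86 TPM) formed a middle group, in which neighbours differed by less than the spread between mice. Sspn stood at 40.7 ± 5.926 TPM, Sgcd at 24.3 ± 9.974 TPM, Utrn at 14.66 ± 7.326 TPM and Sntb1 at 2.679 ± 0.7748 TPM. At 28 months, Dmd had moved up to 108.9 ± 31.12 TPM (n = 9), above Dtna (86.15 ± 9.284 TPM) and Sgcb (71.88 ± 13.07 TPM) and behind Sgca (257.9 ± 21.82 TPM) and Dag1 (132.0 ± 27.71 TPM). The Dmd level per length depends on how reads were divided between its annotated transcripts, which range from 1858 to 14910 bases. Counts and TPM together corresponded to a mean Dmd transcript of 5531 ± 99 bases at 8 months (n = 8) and 5677 ± 57 bases at 28 months (n = 9). Reads that fit several transcripts were shared between them, so this length does not show that short forms were expressed. The scale in bases is approximate, since Sgcb, with 1 annotated transcript of 3786 bases, came out at 4031 ± 27 bases at 8 months. The gene tables add all forms together, and full-length and short dystrophin mRNA could not be followed apart. All 12 muscle fibre markers were detected at every age, with a summed level between 156000 and 241000 TPM over the 50 libraries. In whole muscle, fewer cells of a type and less RNA per cell cannot be told apart.

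Between 8 and 28 months, the main comparison, Dmd, Dag1, Sgcb and Dtna rose and Sspn fell, so that 5 of the 9 genes passed FDR 0.01. The test was edgeR's quasi-likelihood test with Benjamini-Hochberg adjustment over all 12586 genes, of which 39.6% passed (21.0% higher and 18.7% lower). The share of the complex, 4 higher and 1 lower of 9, is read against this wide background. The median log2-fold change of the 9 genes was 0.31, and that of all genes tested was 0.007. In the test for any difference among the 6 ages, 5 of the 9 genes passed, against 35.4% of all genes. The values per mouse are given below as CPM, counts relative to library size, scaled between libraries with TMM factors.

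**Figure D1:**
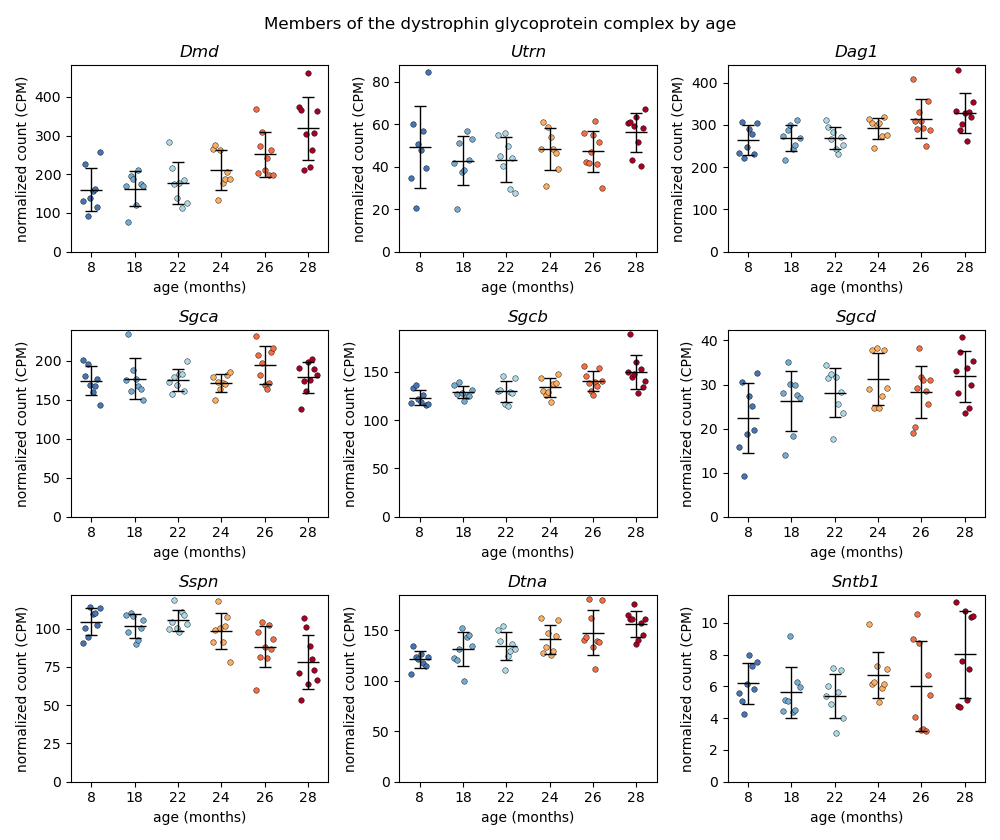
Normalized counts (CPM, vertical axis from 0) of the 9 genes in each of 50 mice by age in months; each point is a mouse, and the horizontal mark and bars are the mean ± SD of 8 or 9 mice. Dmd climbed from a mean of 160.1 to 318.8 CPM, whereas Sspn fell from 104.5 to 78.35 CPM.

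Dmd, which links actin to the membrane complex, showed the largest change. At 8 months its level ranged from 92.74 to 257.3 CPM with a median of 147.5 CPM. The lowest, median and highest values were 75.63, 173.0 and 209.9 CPM at 18 months. They were 113.8, 175.8 and 284.4 CPM at 22 months, so that the ranges of the first 3 ages overlapped widely. At 24 months the values were 133.4, 196.0 and 276.1 CPM. At 26 months they were 198.4, 241.1 and 368.4 CPM, and at 28 months 210.8, 307.7 and 461.9 CPM. All 9 mice of 26 months and all 9 of 28 months were above the 8-month mean, and 4 and 7 of them were above the highest 8-month mouse. The log2-fold change against 8 months was 0.65 ± 0.19 (SE) at 26 months and 0.99 ± 0.19 at 28 months, with edgeR FDRs of 0.00747 and 3.94e-05, which at 28 months is a 1.99-fold level. The call at 26 months was narrow, since it was lost in 11 of the 17 fits that left out 1 mouse of either age (FDR up to 0.025), whereas the call at 28 months held in all 17 (log2-fold change 0.91 to 1.13).

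The size of the Dmd change has to be read beside transcript length. Over the 12022 tested genes with an annotated length, the median log2-fold change between 28 and 8 months rose with the length of the longest transcript, from -0.31 for 546 genes under 1000 bases to 0.37 for 124 genes of 12000 bases or more. Among those longest genes, 39.5% were higher and 5.65% lower. Several of them exceeded the log2-fold change of Dmd, with values up to 1.84. Ttn (titin, 1.27) and Neb (nebulin, 1.18), giant proteins of the sarcomere, were among these. When the trend of each library over transcript length was taken out of the counts, the log2-fold change of Dmd was 0.59 ± 0.10 (FDR 3.41e-06) at 28 months and 0.44 ± 0.10 (FDR 0.000495) at 26 months. What the trend itself stems from was not tested.

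**Figure D2:**
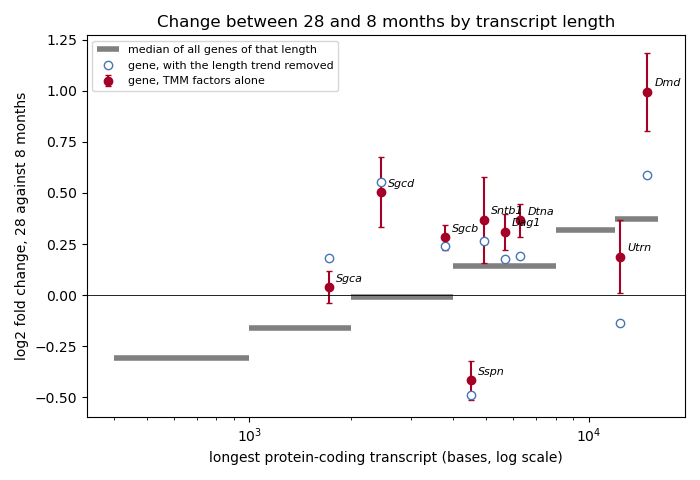
Log2-fold change between 28 and 8 months (vertical axis) against the length of the longest protein-coding transcript (bases, log axis); filled points are the 9 genes with TMM factors alone and their standard errors, open points are the same genes after the length trend of each library was removed, and grey bars are medians of all genes in 6 length classes. The medians rose from -0.31 to 0.37, and Dmd stood above its class at 0.99 before and 0.59 after removal.

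Utrn did not pass the test at any age. Its lowest, median and highest values were 20.48, 49.13 and 84.53 CPM at 8 months and 40.44, 59.21 and 67.33 CPM at 28 months. The 28-month mice all lay inside the range of the 8-month mice, although 7 of 9 were above the 8-month mean. The log2-fold change was 0.19 ± 0.18 with a 95% interval from -0.17 to 0.54 and an FDR of 0.388, and it turned to -0.13 ± 0.11 (FDR 0.289) when the length trend was removed. The spread between mice shrank in value, from a coefficient of variation of 38.8% at 8 months to 16.2% at 28 months, without a test. The 3 genes most like Utrn within ages were Ptprb, a receptor phosphatase of endothelium (Pearson's r = 0.92 over 50 mice), the spectrin gene Sptbn1 (0.91) and Pkd1 (0.90). Their longest transcripts had 11911, 9107 and 14164 bases.

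The level of Utrn relative to Dmd within a mouse does not depend on the scaling of its library. The log2 ratio of their TPM values was -1.97 ± 0.35 at 8 months (n = 8), which is 0.256 Utrn for each Dmd. It ranged from -2.64 to -1.57 at that age. At 26 months it was -2.55 ± 0.31 and at 28 months -2.57 ± 0.25 (n = 9 each), a ratio of 0.169 at 28 months. At each of these ages, 4 of 9 mice were below the lowest 8-month mouse. In two-sided exact permutation tests, adjusted over the 5 comparisons with the shared 8-month mice, the log2 ratio was lower by a difference of -0.59 at 26 months (raw p = 0.00346) and -0.60 at 28 months (raw p = 0.00189), both with an adjusted exact p = 0.00864. The differences were -0.15, -0.24 and -0.28 at 18, 22 and 24 months, with adjusted exact permutation p = 0.326, 0.198 and 0.111. With counts in place of TPM, the log2 ratio was lower by -0.68 at 26 months and -0.75 at 28 months (adjusted exact permutation p = 0.00103 and 0.000823). The approximate mean transcript length that counts and TPM together correspond to moved in opposite directions between 8 months (n = 8) and 28 months (n = 9). It went from 6528 ± 605 to 6028 ± 242 bases for Utrn and from 5531 ± 99 to 5677 ± 57 bases for Dmd. The part of this length in the ratio was not tested.

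**Figure D3:**
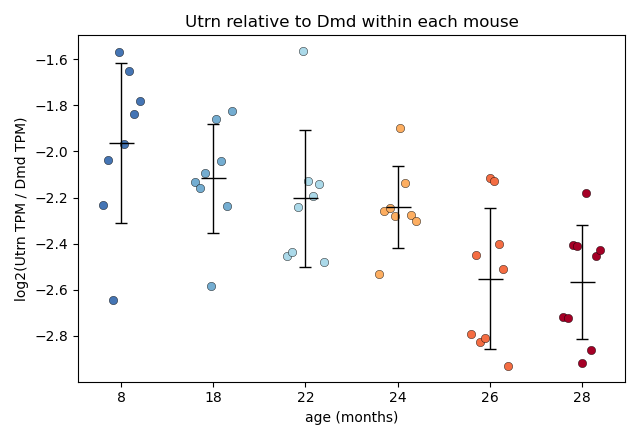
Log2 ratio of Utrn TPM to Dmd TPM (vertical axis) in each of 50 mice by age in months; points are mice, marks and bars are the mean ± SD of 8 or 9 mice. The mean moved from -1.97 at 8 months to -2.57 at 28 months, and the highest mouse of 22 months stood apart at -1.57.

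Dag1 encodes the precursor of both dystroglycan chains. Its lowest, median and highest values were 220.9, 263.4 and 307.9 CPM at 8 months, 250.5, 309.3 and 408.1 CPM at 26 months and 261.4, 328.9 and 430.6 CPM at 28 months. The groups overlapped, with 6 of 9 mice of 28 months above the highest 8-month mouse and 8 of 9 above the 8-month mean. The log2-fold change at 28 months was 0.31 ± 0.09 with an edgeR FDR of 0.00259. This call depended on a single library, replicate 2 of 28 months, which had the highest Dag1 level, and without it the change was 0.25 with an FDR of 0.0142. It was also lost after removal of the length trend (0.18 ± 0.06, FDR 0.0176).

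The 3 sarcoglycans differed. Sgcb (β-sarcoglycan), a core subunit, had its lowest, median and highest values at 115.2, 120.0 and 136.5 CPM at 8 months and at 128.0, 147.6 and 189.1 CPM at 28 months. All 9 old mice were above the 8-month mean and 7 were above the highest 8-month mouse. Its log2-fold change of 0.28 ± 0.06 (edgeR FDR 0.000141) held without replicate 2 of 28 months, again the highest (0.23, FDR 0.000733), and after removal of the length trend (0.24 ± 0.06, FDR 0.000719). On CPM, its coefficient of variation was 6.45% at 8 months and 11.8% at 28 months, or 7.13% at 28 months without replicate 2.

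Sgcd (δ-sarcoglycan) missed the threshold. Its lowest, median and highest values were 9.205, 22.48 and 32.67 CPM at 8 months and 23.44, 33.18 and 40.73 CPM at 28 months. All 9 mice of 28 months were above the 8-month mean, 5 of them above the highest 8-month mouse, and the log2-fold change of 0.50 ± 0.17 had an edgeR FDR of 0.0123. It passed under 4 of the 9 alternatives, with FDRs from 0.00813 (DESeq2) to 0.0384 (the 2 ages alone), and had an FDR of 0.00963 after removal of the length trend. The low end at 8 months came from replicate 3, the mouse with the lowest Dmd and Utrn levels too.

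Sgca (α-sarcoglycan), made in muscle fibres, lay between 143.6 and 200.5 CPM at 8 months (median 173.2 CPM) and between 138.5 and 201.9 CPM at 28 months (median 181.5 CPM). The ranges were nearly the same. Its log2-fold change was 0.04 ± 0.08 with a 95% interval from -0.11 to 0.19 and an edgeR FDR of 0.692. At 26 months the value was 0.16 ± 0.08 (FDR 0.105), and 0.24 ± 0.07 (FDR 0.00653) after removal of the length trend.

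Sspn, the tetraspan-like protein that sits with the sarcoglycans, was the only one of the 9 genes that fell. Its lowest, median and highest values were 90.67, 105.9 and 114.3 CPM at 8 months, 97.97, 103.6 and 118.5 CPM at 22 months and 78.0, 99.75 and 118.3 CPM at 24 months. At 26 months they were 60.0, 88.3 and 104.0 CPM, and at 28 months 53.67, 72.96 and 106.9 CPM. In the oldest group 7 of 9 mice were below the lowest 8-month mouse, and 1 was above the 8-month mean. The log2-fold change was -0.24 ± 0.10 at 26 months (edgeR FDR 0.0428) and -0.42 ± 0.10 at 28 months (FDR 0.000345), where the level was 0.75 of that at 8 months. The lowest 28-month value was that of replicate 2, without which the change was -0.36 (FDR 0.0013), and it was -0.49 ± 0.10 (FDR 7.9e-05) after removal of the length trend. The spread between mice was wider at 28 months, with a coefficient of variation of 22.4% against 8.48% at 8 months.

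Of the cytoplasmic adaptors, Dtna (α-dystrobrevin), a dystrophin relative that carries syntrophins had positive values against 8 months at each older age, with 0.12 ± 0.08, 0.15 ± 0.08 and 0.22 ± 0.08 at 18, 22 and 24 months. Its lowest, median and highest values were 106.6, 122.5 and 134.5 CPM at 8 months, 111.7, 140.2 and 180.3 CPM at 26 months and 136.4, 160.9 and 176.1 CPM at 28 months. It was the only one of the 9 genes whose 28-month mice were all above the highest 8-month mouse. How many of all tested genes separate in this way was not counted. Nor was it counted how many reach the numbers of mice outside the 8-month range given for the other members. The log2-fold change was 0.29 ± 0.08 at 26 months (edgeR FDR 0.00532) and 0.37 ± 0.08 at 28 months (FDR 0.000182). After removal of the length trend it was 0.19 ± 0.09 at 28 months and no longer passed (FDR 0.0559), nor did the 26-month value (0.19 ± 0.09, FDR 0.0739). The 26-month call was also lost in 6 of the 17 fits that left out 1 mouse (FDR up to 0.0193).

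Sntb1 (β1-syntrophin), an adaptor for signaling proteins, was the least abundant of the 9 genes and the most variable at the old ages. Its lowest, median and highest values were 4.233, 5.991 and 7.943 CPM at 8 months, 3.179, 5.452 and 10.54 CPM at 26 months and 4.705, 7.581 and 11.31 CPM at 28 months. At 26 months 3 mice were above the highest 8-month mouse and 4 below the lowest. The log2-fold change at 28 months was 0.37 ± 0.21 with a 95% interval from -0.05 to 0.78 and an edgeR FDR of 0.137.

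The order of the ages was read from each age against 8 months and against its neighbour. These comparisons share the 8-month mice, and their values are given side by side only. At 18, 22 and 24 months against 8 months, edgeR called 0 of the 9 genes, and DESeq2 and limma also called 0. Of all genes, edgeR called 0.0715% at 18 months (0.0397% higher and 0.0318% lower), 0.0397% at 22 months (0.0397% higher and 0% lower) and 0.612% at 24 months (0.318% higher and 0.294% lower). At an unadjusted p below 0.05, 0, 0 and 3 of the 9 genes were found, against 3.65%, 9.01% and 19.2% of all genes, the 3 being Dmd (0.40 ± 0.20), Sgcd (0.47 ± 0.18) and Dtna (0.22 ± 0.08) at 24 months. At 26 months, Dmd and Dtna were called, 2 of 9 against 18.4% of all genes (9.84% higher and 8.54% lower). Between neighbouring ages from 18 months on, edgeR, DESeq2 and limma called 0 of the 9 genes in each step, and edgeR called 0.00795% of all genes between 22 and 18 months (0.00795% higher) and 0% in the other steps. There, 1 of the 9 genes had an unadjusted p below 0.05, Sgca between 26 and 24 months (0.18 ± 0.08), a step in which 17.5% of all genes did, so that no neighbouring pair of ages was told apart for any of the genes.

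**Figure D4:**
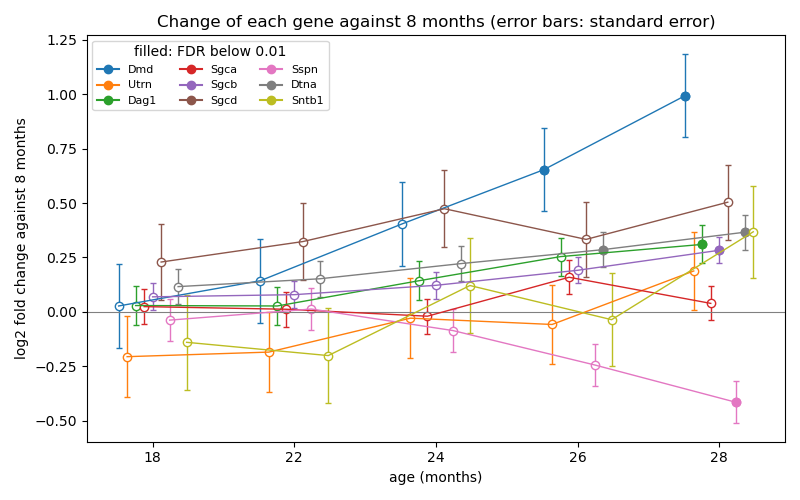
Log2-fold change of each of the 9 genes against 8 months (vertical axis) at each of the 5 older ages (horizontal axis, months), bars showing standard errors; filled points passed FDR 0.01 in edgeR. Filled points appear at 26 months for Dmd (0.65) and Dtna (0.29), and at 28 months for 5 genes.

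Mice of 22 and 28 months shared the diet regimen, although those of 28 months had eaten the diet for longer. Time on the diet and age thus cannot be told apart in the comparison of these ages. In that comparison 4 of the 9 genes passed, against 27.7% of all genes (16.2% higher and 11.5% lower). Dmd was higher by 0.85 ± 0.19 (edgeR FDR 0.000528), Dag1 by 0.28 ± 0.09 (FDR 0.00779) and Sgcb by 0.20 ± 0.06 (FDR 0.00591), and Sspn was lower at -0.43 ± 0.10 (FDR 0.000492). Dtna had a log2-fold change of 0.22 ± 0.08 with an FDR of 0.026. Dmd and Sspn passed in each of the 17 fits that left out 1 mouse, whereas Dag1 was lost in 12 of them and Sgcb in 6, and both were lost without replicate 2 of 28 months (FDR 0.0396 and 0.0326). After removal of the length trend, Dmd was higher by 0.45 ± 0.10 (FDR 0.000293) and Sspn stood at -0.49 ± 0.10 (FDR 0.000189), and Dag1 (0.16 ± 0.06, FDR 0.0401) and Sgcb (0.17 ± 0.06, FDR 0.0161) no longer passed.

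Within ages, mice with more Dmd mRNA also had more Utrn (r = 0.79 over 50 mice after subtraction of the age means, on log2(CPM + 1)), more Dag1 (0.77) and more Sgcd (0.57). Sgca ran against Utrn (-0.60) and Sgcd (-0.54). Sgcb, Sspn, Dtna and Sntb1 were not tied as closely to Dmd, with r between -0.27 and 0.44. These values are descriptions, since the points share each library's composition. On TPM, most of them moved upwards, to 0.86 for Dmd with Dag1, -0.27 for Utrn with Sgca and 0.59 for Dmd with Sgcb.

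**Figure D5:**
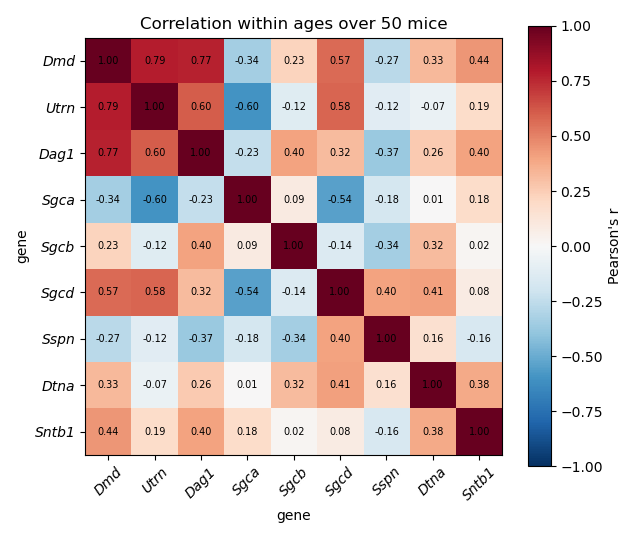
Pearson's r of log2(CPM + 1) between the 9 genes over 50 mice after the mean of each age was subtracted; both axes list the genes and the color scale runs from -1 to 1. Dmd, Utrn, Dag1 and Sgcd form a block of positive values between 0.32 and 0.79, and Sgca is negative with Utrn at -0.60.

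The length trend moved with this block. For each library, the median log2 deviation of 678 genes with a longest transcript of at least 8000 bases was set against that of 2877 genes under 2000 bases. Within ages, this difference correlated at r = 0.94 with Dmd, 0.86 with Utrn, 0.77 with Dag1 and 0.68 with Sgcd, at -0.49 with Sgca, and between -0.09 and 0.35 with the other four genes. At 8 months it ranged from -0.85 in replicate 3, the mouse with the lowest Dmd level, to 0.45 in replicate 8, the one with the highest. At 18 months its lowest value, -0.89, was in replicate 2, which was also lowest for Dmd, Utrn, Dag1 and Sgcd. Its mean was -0.17 ± 0.39 at 8 months (n = 8) and 0.30 ± 0.21 at 28 months (n = 9).

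The 3 genes most like each member within ages were as follows. The closest to Dmd were Huwe1 (r = 0.945), a ubiquitin ligase, Herc2 (0.936), another, and Abcc9 (0.932), a subunit of a potassium channel, with longest transcripts of 14579, 15261 and 7499 bases. Closest to Dag1 were Myo18a (0.868), Med13l (0.864) and Foxj2 (0.861, 5283 bases), and closest to Sgcd were Zfp106 (0.895), Pdpr (0.889) and Rock2 (0.846). Sgca was most like Rtn2 (0.893), the glycolytic enzyme gene Aldoa (0.835) and Adh5 (0.823), with longest transcripts of 1990, 1549 and 1604 bases. Sgcb was most like Rad23b (0.782), Rnf146 (0.778) and Nars (0.765), and Sspn like Ppp2r3a (0.832, 6786 bases), Pde7b (0.832) and 1700123M08Rik (0.829). Dtna and Sntb1 had weaker neighbours, with Otud6b (0.689), Prkar2a (0.66) and Uso1 (0.65) for Dtna and Pm20d2 (0.696), Ccnk (0.667) and Usp46 (0.662) for Sntb1. On the first principal component of the 50 libraries, computed over 12452 genes, Dmd had a z-score of 2.38, Utrn of 1.12 and Sspn of -1.13.

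Of 11 further partners of the complex, 8 were expressed enough to be tested, and 0 rose and 3 fell between 8 and 28 months (median log2-fold change -0.08). For this and the following lists, the shares of all tested genes were 21.0% higher and 18.7% lower, and nothing is called particular to a list. The 3 were Cav3 (caveolin-3, which binds dystroglycan) with 46.11 ± 5.905 CPM at 8 months and 30.78 ± 7.427 CPM at 28 months (-0.58 ± 0.11, edgeR FDR 2.05e-05), Dtnb (β-dystrobrevin, -0.43 ± 0.14, FDR 0.00948) and Sgce (ε-sarcoglycan, -0.34 ± 0.09, FDR 0.00186). The other 5 tested partners did not pass. Among them, Nos1, the neuronal nitric oxide synthase held at the membrane by the complex, had 0.19 ± 0.20 (FDR 0.44), Drp2 0.04 ± 0.30 (FDR 0.918) and Sntb2 -0.18 ± 0.12 (FDR 0.203). The levels of Sgcz, Sntg1 and Sntg2 were too low to test, with at most 2, 3 and 8 counts in any mouse.

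On the matrix side, 0 of 14 tested laminin and matrix ligand genes rose and 8 fell (median -0.43). The 3 largest changes were the collagen VI chains Col6a2 (-1.65 ± 0.21), Col6a1 (-1.49 ± 0.20) and Col6a3 (-1.16 ± 0.24). Of 16 tested genes for the sugars of dystroglycan, 1 rose and 4 fell (median -0.20): Pomt2, an O-mannosyltransferase, rose by 0.34 ± 0.08, and the largest falls were in B3galnt2 (-0.54 ± 0.11), Pomgnt2 (-0.53 ± 0.10) and Gmppb (-0.47 ± 0.15), enzymes of the same glycan pathway.

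Inside the fibre, 11 of 24 tested genes of costameres and membrane repair rose and 5 fell (median 0.21). The keratins Krt8 (3.08 ± 0.64) and Krt18 (2.44 ± 0.49) and the membrane adaptor Ank3 (1.20 ± 0.17) had the largest values. Krt8 (0.08101 CPM) and Krt18 (0.677 CPM) were under the filter of 1 CPM at 8 months and were tested only through the mice in which they were high. At the neuromuscular junction, where utrophin is concentrated, 4 of 13 tested genes rose and 1 fell (median 0.06), led by Musk (1.31 ± 0.24), the receptor kinase of the synapse, and the acetylcholine receptor subunits Chrna1 (1.27 ± 0.15) and Chrnb1 (1.04 ± 0.12). Of 10 tested genes that are known to rise after loss of the nerve, 7 rose and 0 fell (median 1.81), with Sln (4.25 ± 0.43) and Gdf5 (3.08 ± 0.67) the largest. Gdf5 had 0.1325 CPM at 8 months and passed the filter through the mice in which it was high, so its fold is conditioned on that.

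Marker genes of the cells in the muscle are given for the same comparison, beside 21.0% higher and 18.7% lower among all genes. Among 12 muscle fibre genes 4 rose and 1 fell (median 0.13), with Ttn (1.27 ± 0.20), Neb (1.18 ± 0.28) and Pvalb (-0.74 ± 0.16) the largest. Among markers of other cells, 0 rose and 1 fell of 6 endothelial genes (Tek, -0.41 ± 0.11; median -0.21), and 0 rose and 3 fell of 6 smooth muscle and pericyte genes (Cnn1, -1.36 ± 0.29; median -0.38). For 7 Schwann cell genes 0 rose and 1 fell (S100b, -1.07 ± 0.29; median -0.45), for 6 fibroblast genes 0 rose and 4 fell (Col3a1, -2.29 ± 0.30; median -1.44), and for 5 adipocyte genes 0 rose and 3 fell (Lep, -3.98 ± 0.64, with 0.3323 CPM at 28 months; median -1.45). For 6 macrophage genes 3 rose and 0 fell (Cd163, 1.29 ± 0.22; median 0.52), and for 5 erythroid genes 1 rose and 0 fell (Alas2, 1.23 ± 0.36; median 0.66). No marker was at 0 in any age group. The summed TPM of the endothelial markers, cells that also make Utrn, lay between 93.5 and 159.0 at 8 months and between 108.0 and 165.0 at 28 months. The part of these cells in the values of the 9 genes was not tested.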

How the data were processed

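According to the Methods and the labels, stranded mRNA libraries were trimmed with cutadapt 1.9.1 and assigned with kallisto 0.43.1 to protein-coding transcripts of GRCm38, and reads that fit several transcripts were shared between them. The estimated counts per gene, as deposited by the authors, are sums over transcripts without normalization. The TPM values, deposited by the authors, are scaled by transcript length and library size. Gene lengths came from GENCODE vM21 on the same build, for 95.5% of the tested genes.

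A gene was tested when 8 or more mice had 1 CPM or more. The quasi-likelihood test of edgeR 4.0.16 (R 4.3.3) was applied to the counts of all 50 mice together, with age as the only factor and library sizes corrected by TMM. P-values were adjusted by Benjamini-Hochberg over the tested genes, and a gene was called at FDR 0.01. The Utrn to Dmd ratio was compared by two-sided exact permutation tests at a threshold of 0.05. Alternatives were DESeq2 1.42.0, limma 3.58.1 on log2(TPM + 1) or log2(TPM + 0.1), RLE or upper-quartile factors, no filter, the 2 ages compared alone, and each mouse left out in turn. Removal of the length trend and some of the fits without 1 mouse were added after seeing the data. The test script was also tested on simulated data. Named genes were the 9 members, all further partners, the 3 largest called changes of each other list (partner genes of the matrix, glycosylation, costamere, junction and denervation lists, and cell markers) and the 3 genes closest to each member. Some genes that this rule names are not reported here. The members and lists were chosen with earlier results of these data known. Intervals are 95% from the standard error.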

Additional observations from a re-analysis of the deposited data

Results flagged for a closer look

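In 60 groups of 8 or 9 mice, the highest or lowest mouse was compared with the rest by Dixon's criterion, which by chance marks about 1 group in 20, and 4 groups had a mouse that stood apart. Sgca was 234.3 CPM in replicate 2 of 18 months, with the next mouse at 188.3 CPM. That library was also the lowest of its age for Dmd, Utrn, Dag1 and Sgcd. Sntb1 was 9.181 CPM in replicate 4 of 18 months, with the next at 6.29 CPM, and 9.89 CPM in replicate 1 of 24 months, with the next at 7.285 CPM. The log2 ratio of Utrn to Dmd in TPM was -1.565 in replicate 4 of 22 months, with the next mouse at -2.127.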

How the results depend on the processing

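Between 28 and 8 months, Dmd, Sgcb and Sspn passed FDR 0.01 under all 9 alternatives, Dtna under 8, Dag1 under 7, Sgcd under 4 and Utrn, Sgca and Sntb1 under 0. Of all 12586 tested genes, 5181 were called with DESeq2, 4560 with limma on log2(TPM + 1) and 5009 with upper-quartile factors. This number was 4785 of 22116 without a filter, 3396 of 12075 with the 2 ages alone and 4634 of 12022 with the length trend removed. For the other comparisons, the shares of all genes under each alternative are not given. Utrn was reversed to -0.13 by removal of the length trend and Sgca to -0.01 by upper-quartile factors, neither with a call. The number of the 9 genes called between 26 and 8 months was 1 with limma on either TPM scale and 0 with upper-quartile factors, without a filter and with the 2 ages alone. It was 2 with the length trend removed, where Sgca was called in place of Dtna. Between 28 and 22 months it was 2 with upper-quartile factors, without a filter, with the 2 ages alone and with the length trend removed, and for any age difference it was 3 with upper-quartile factors. With 1 mouse left out, the count was 0 to 3 between 26 and 8 months, 4 to 6 between 28 and 8 months, 2 to 4 between 28 and 22 months and 4 to 5 for any difference. The number of all genes called in those fits is not given. A general loss of calls thus cannot be told apart from a loss in the 9 genes alone. Called partners numbered 1 with limma on either scale and with the 2 ages alone, laminin and matrix ligands 5 with limma on either scale, and glycosylation and junction genes 3 each with the 2 ages alone. Called markers of smooth muscle and pericytes numbered 1 with limma on either scale, without a filter and with the length trend removed, endothelial markers 0 with limma and 2 with the length trend removed, erythroid markers 0 with the 2 ages alone and 3 with the length trend removed, Schwann cell markers 2 with DESeq2 and upper-quartile factors, and muscle fibre markers 3 with upper-quartile factors and the 2 ages alone. On counts, the Utrn to Dmd ratio at 24 months differed by -0.391 (adjusted exact permutation p = 0.0119). The cause of these shifts was not tested. The fits on 2 ages had fewer mice, and the filter and the TMM factors were also made anew for them.

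Over 121 same-number pairs of mice of different ages, the median correlation was 0.0513, against -0.0059 for pairs with different numbers. Of the same-number pairs, 47 were over 0.1, and 12 of 50 mice correlated best with their own number. Whether mice with the same replicate number have anything in common was not tested. With the number as a replicate block, 5 of the 9 genes passed between 28 and 8 months, against 4954 of all 12586 genes. In the same fit, 3 of the 9 genes passed between 26 and 8 months and 4 between 28 and 22 months, where the share of all genes is not given.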
